A study of Mus musculus with 49 samples.

Results

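The genes described here are 42 interferon-stimulated genes (ISGs), listed by symbol as well-known targets of interferon signaling. The list uses no threshold on these libraries but was drawn up with earlier results of these data known. They are 42 of the 23992 gene symbols in the tables, each represented by its longest transcript, and all 42 were among the 15562 genes that passed the filter on low counts and were tested. By role they comprise 4 sensors of viral nucleic acid, 3 genes of the ISG15 system, 11 IFIT, OAS and nucleotide-directed effectors, 5 membrane and capsid restriction factors, 11 interferon-inducible GTPases of the GBP and IRG families, and 8 other ISGs.

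The study replaced the tyrosine through which STAT5A (Y694F) or STAT5B (Y699F) is phosphorylated with phenylalanine, and followed the response of CD8+ T cells to interleukin-2 (IL-2). RNA sequencing was performed on splenic CD8+ T cells, isolated by negative selection, from homozygous Stat5a knock-in (KI) mice, homozygous Stat5b KI mice and wild-type (WT) littermates of each strain, either at 0 hr or after 4, 24 or 48 hr with 500 IU/ml of human IL-2. The KI alleles were made by CRISPR in B6D2F1 zygotes and backcrossed for 6 generations to C57BL/6J, and mice of both sexes were 8 to 24 weeks old. Both strains carry the other STAT5 protein in its unmutated form, and a one-residue substitution cannot be read from gene counts, so the genotypes were not checked here. There were 16 groups of strain, genotype and time, with 3 libraries each, except that replicate 3 of the 4 hr Stat5a KI group was left out, because it held 1028503 reads on transcripts and 13 of the 42 ISGs had 3 or fewer counts in it. The remaining 47 libraries held between 17369537 and 60202776 reads on transcripts, with a median of 41412147. Replicate 2 of the 4 hr WT group in the Stat5a strain was the shallowest, the next holding 28446596 reads. It also stood apart in other ways, since 44.9% of its mapped reads lay on transcripts, compared with 68.7 to 84.4% in the other 46 libraries, and its chi-square per gene against the other libraries of its group was 217 and 221, compared with 23 between those libraries. The changes at 4 hr in the Stat5a strain that are described below rest in part on it, and the main ones are given with and without it. The labels do not say whether replicates came from separate mice, so p-values measure the spread between these libraries, which may be technical. Libraries of cells kept in culture without IL-2 for the same times were not analysed here, so IL-2 and time in culture cannot be told apart in any change from 0 hr.

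Interferons of type I (IFN-α and IFN-β) and type II (IFN-γ, made by T and NK cells) bind separate receptors and act through JAK kinases. Type I interferon acts mainly on genes with an interferon-stimulated response element (ISRE), whereas IFN-γ acts on genes with a gamma-activated site (GAS), the same kind of palindrome that STAT5 dimers recognize. Sensors, IFIT and OAS proteins act mainly on viral RNA, and ISG15 is conjugated to viral and host proteins. GBP and IRG proteins attack the vacuoles of intracellular pathogens and are classical IFN-γ targets.

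Promoter sequence was available from RefSeq (assembly GRCm38.p6) for 28 of the 42 ISGs, as 34 windows from 250 bases before to 50 bases after a transcription start. The core of the ISRE, searched on both strands as GAAA and GAAA with any 2 bases (NN) between them, was present in 18 of the 34 windows (52.9%), compared with 3.44% of all 32851 windows. The GAS, searched as TTCNNNGAA, which reads the same on both strands, was present in 9 of the 34 windows (26.5%), compared with 8.30% of all windows. By gene, 17 of the 28 ISGs held an ISRE core and 9 held a GAS, 6 held both and 8 held neither; among the GBP and IRG genes, 7 of 8 held an ISRE core and 4 of 8 a GAS. A match to these letters is a description of the window and not evidence of binding. The following stretches lie upstream of the start and are shown as examples of how the motifs are arranged in genes of different roles, with ISRE cores and GAS motifs in capitals and each sequence on the strand of its gene. The first 4 stand in effector genes of the antiviral kind, at chr4:156200865-156200906 (Isg15, minus strand), chr19:34640775-34640823 (Ifit1, plus strand), chr12:26456553-26456582 (Rsad2, minus strand) and chr8:71537577-71537618 (Bst2, minus strand, where the GAS and the ISRE core overlap).
Isg15: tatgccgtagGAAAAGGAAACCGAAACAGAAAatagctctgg
Ifit1: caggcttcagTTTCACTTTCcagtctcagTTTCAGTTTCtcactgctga
Rsad2: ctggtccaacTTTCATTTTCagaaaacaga
Bst2: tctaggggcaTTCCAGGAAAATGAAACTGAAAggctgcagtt

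The GTPase genes are shown at chr3:142620594-142620623 (Gbp2, plus strand), chr3:142530220-142530302 (Gbp7, plus strand), chr11:58199501-58199541 (Igtp, plus strand), chr11:58214892-58214932 (Irgm2, plus strand) and chr11:48871425-48871460 (Irgm1, minus strand).
Gbp2: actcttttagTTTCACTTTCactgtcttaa
Gbp7: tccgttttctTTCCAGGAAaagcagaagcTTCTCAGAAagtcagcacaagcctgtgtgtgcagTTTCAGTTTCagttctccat
Igtp: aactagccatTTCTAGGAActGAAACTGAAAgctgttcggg
Irgm2: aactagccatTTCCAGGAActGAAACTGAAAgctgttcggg
Irgm1: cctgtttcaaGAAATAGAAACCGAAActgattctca
Igtp and Irgm2, neighbors on chromosome 11, share a GAS followed closely by an ISRE core, and their stretches of 41 bases differ at 1 base (T14C, counted from 1 at the 5′ end, Igtp first). The GAS of Igtp begins 45 bases and its ISRE core 34 bases before the transcription start.

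ISG levels are given as RPKM, reads per kilobase of transcript scaled to the depth of the library, which can be compared between genes because the value is per length. The median RPKM over the 42 ISGs was 6.36 in WT cells of the Stat5a strain at 0 hr, 6.45 at 4 hr, 29.8 at 24 hr and 28.5 at 48 hr. In Stat5a KI cells the same medians were 6.42, 13.8, 18.4 and 24.6. The Stat5b strain had medians of 6.52, 7.54, 23.1 and 23 in WT and 7.79, 11.3, 13.1 and 19.3 in KI cells. The median was thus above the WT value in KI cells at 4 hr and under it at 24 hr, and the genotypes lay closer together at 48 hr than at 24 hr. The median log2 fold change at 4 hr, given below, was smaller than the gap between these medians in both strains. RPKM is scaled to all mapped reads, and only 44.9% of those of the shallow 4 hr WT library lay on transcripts, which lowers its RPKM. The most abundant member was Ly6e, a GPI-anchored protein that restricts viral entry, with a mean of 282 RPKM over the 47 libraries (165 to 416), followed by the IRG protein Igtp with 200 (20.9 to 498). The least abundant was Ifi44, with a mean of 0.385 RPKM, then Mx2 with 0.705 and Rsad2 with 0.936. Mx1 and Mx2 transcripts were measured here, but the proteins are defective in most laboratory strains, C57BL/6 among them. The heat map of ISG levels shows all members in the 47 libraries.

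**Figure D1:**
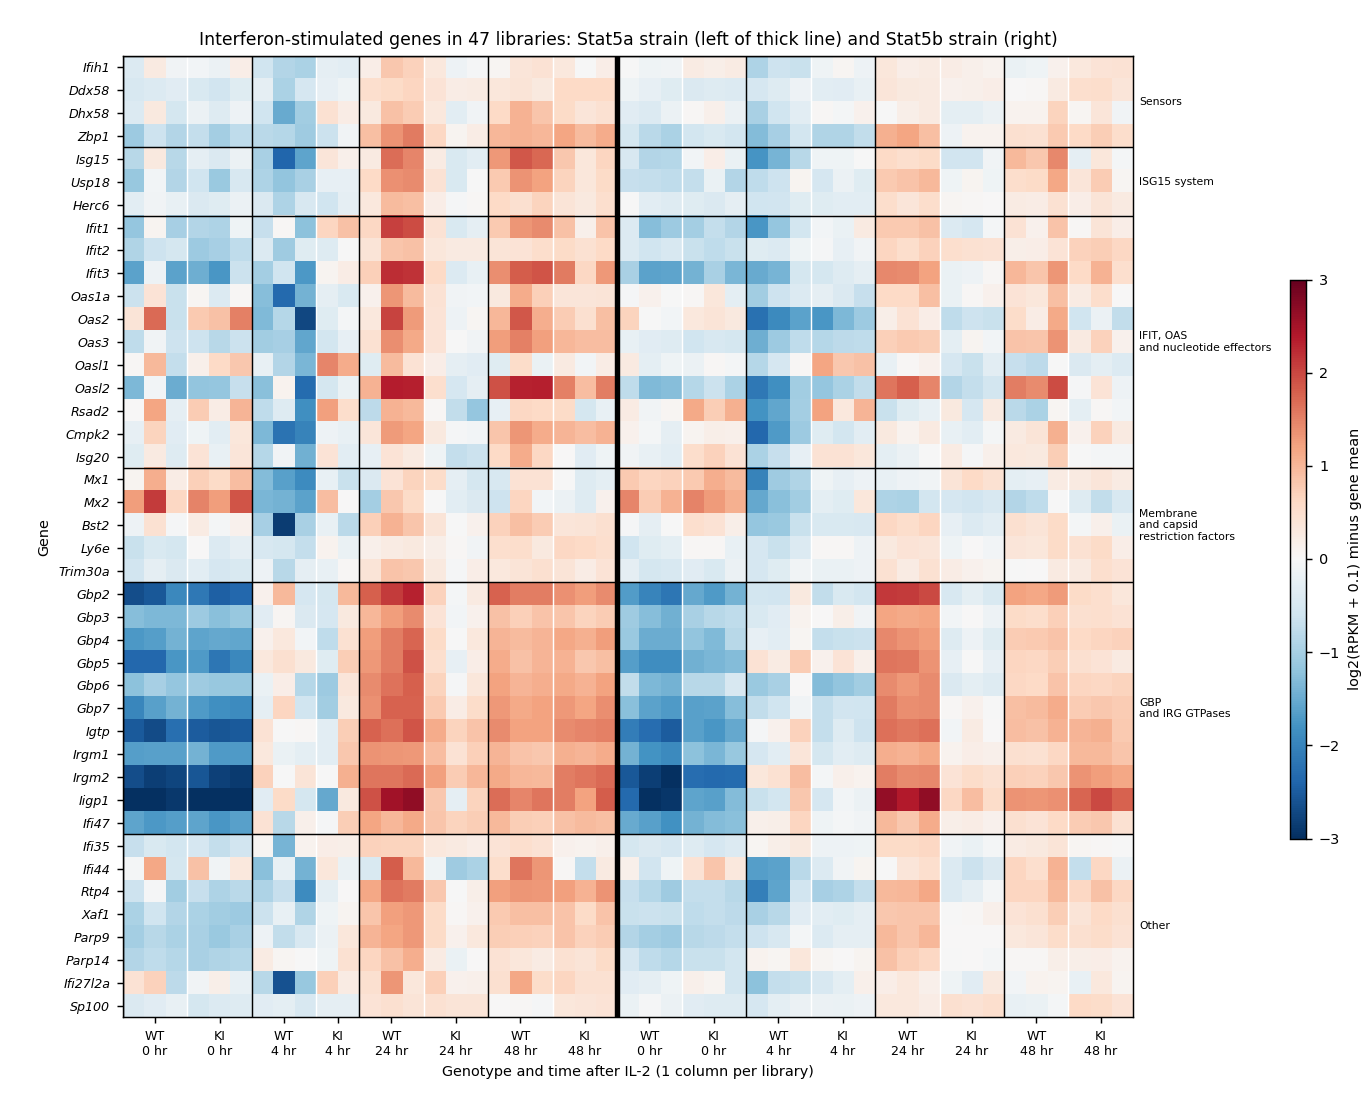
Heat map of log2(RPKM + 0.1) minus the mean of each gene, for the 42 ISGs (rows, ordered by role) in the 47 libraries (columns, by strain, time and genotype). GBP and IRG genes have their highest group means in WT cells at 24 hr, and their lowest at 0 hr except for Gbp6 in the Stat5b strain (12.3 RPKM in KI cells at 4 hr), as in Gbp2, which went from 15.1 to 24.9 RPKM to 332 to 476 RPKM in WT cells of the Stat5a strain, while Mx1 and Mx2 are highest at 0 hr.

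In WT cells the IL-2 response was tested against 0 hr in each strain with edgeR's quasi-likelihood test and Benjamini-Hochberg adjustment over all 15562 genes; calls required a change of at least 2-fold with an adjusted p of 0.05 or less. At 4 hr members were called in both directions. Of the 42 ISGs, 12 rose in the Stat5a strain (11.1% of all genes tested were called higher) and 10 fell (10.6% called lower), with a median log2 fold change of 0.10 over the 42 ISGs and 0.07 over all genes. In the Stat5b strain 8 rose (6.10% of all genes) and 7 fell (9.52%), with medians of -0.29 and -0.01. All 11 GBP and IRG genes rose in the Stat5a strain and 8 of 11 in the Stat5b strain. Without the shallow WT replicate 2, 9 of the 11 were called in the Stat5a strain, and the log2 fold changes of the others were 0.77 (Gbp3) and 0.46 (Gbp6). Irgm2, a regulatory IRG protein, was measured at 4.55, 4.06 and 4.27 RPKM in WT cells of the Stat5a strain at 0 hr and at 47.3, 28.9 and 38.5 RPKM at 4 hr. Its RPKM in the Stat5b strain was 4.96, 4.02 and 3.58 at 0 hr and 37.3, 40 and 55.8 at 4 hr. Every 4 hr library was far above every 0 hr library, and the log2 fold change was 3.25 in both strains (SE 0.175, adjusted p = 9.63e-18, and SE 0.176, adjusted p = 1.17e-17). Gbp2, a guanylate-binding protein, was more variable, with 104, 188 and 67.7 RPKM at 4 hr in WT cells of the Stat5a strain after 15.1, 16.2 and 24.9 RPKM at 0 hr. The groups did not overlap, and the log2 fold change was 2.97 (SE 0.343, adjusted p = 2.48e-09) in the Stat5a strain and 1.56 (SE 0.326, adjusted p = 0.000119) in the Stat5b strain. The highest of the 4 hr values in the Stat5a strain was that of the shallow library, without which the log2 fold change was 2.02 (adjusted p = 2.92e-08) for Gbp2 and 3.15 (adjusted p = 5.95e-17) for Irgm2.

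The 7 ISGs that fell at 4 hr in WT cells of both strains (70.0% of the 10 in the Stat5a strain and 100% of the 7 in the Stat5b strain) were Bst2, Cmpk2, Ifi44, Mx1, Mx2, Oas2 and Rsad2. Mx2, a dynamin-like GTPase of the Mx family, was at 1.42, 2.63 and 0.888 RPKM at 0 hr and 0.147, 0.139 and 0.111 RPKM at 4 hr in WT cells of the Stat5a strain. All 4 hr libraries were well below all 0 hr libraries, with a log2 fold change of -3.56 (SE 0.464, adjusted p = 3.55e-08) and, in the Stat5b strain, of -3.12 (SE 0.444, adjusted p = 2.49e-07). Mx1 had a log2 fold change of -2.21 (SE 0.314, adjusted p = 1.97e-07) and -2.25 (SE 0.305, adjusted p = 9.35e-08) in the 2 strains. Cmpk2, a mitochondrial nucleotide kinase encoded beside Rsad2, had a log2 fold change of -2.02 (SE 0.285, adjusted p = 1.79e-07) and -1.88 (SE 0.280, adjusted p = 6.01e-07). Bst2 (tetherin), which holds budding virions at the membrane, went from 62.6, 96.1 and 67.6 RPKM at 0 hr to 34.7, 9.54 and 35.7 RPKM at 4 hr in the Stat5a strain, the lowest value belonging to the shallow library. Without that library the log2 fold change was -1.28 for Bst2, -3.84 for Mx2, -2.46 for Mx1 and -2.07 for Cmpk2, each still called. Without it 9 ISGs rose and 14 fell at 4 hr in the Stat5a strain, and 6 fell without replicate 2 of the 0 hr WT group. The 7 that fell in the Stat5b strain became 11 without replicate 3 of its 4 hr WT group.

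At 24 and 48 hr most of the changes in WT cells were upward. At 24 hr 24 ISGs rose and 1 fell in the Stat5a strain (9.18% of all genes called higher and 13.9% lower), with a median log2 fold change of 1.44, and 22 rose and 2 fell in the Stat5b strain (9.90% and 12.7%), with a median of 1.08. At 48 hr 23 rose and 1 fell in the Stat5a strain (16.0% and 20.8%) and 21 rose and 1 fell in the Stat5b strain (16.2% and 19.2%), with medians of 1.28 and 1.07. The medians over all genes lay between -0.05 and 0.02 in these 4 comparisons. All 11 GBP and IRG genes rose at both times in both strains, with class medians of 3.17 and 2.85 at 24 hr and 2.76 and 2.38 at 48 hr. Iigp1, an IRG protein that disrupts parasite vacuoles, rose most, with log2 fold changes at 24 hr of 5.80 (SE 0.471, adjusted p = 3.59e-13) and 5.26 (SE 0.457, adjusted p = 1.85e-12). Its RPKM was 1.06, 1.24 and 2.34 at 0 hr and 68.5, 104.9 and 115.7 at 24 hr in WT cells of the Stat5a strain. Oasl2, a ubiquitin-like member of the OAS family, rose by 2.76 (SE 0.453, adjusted p = 2.09e-06) and 2.66 (SE 0.456, adjusted p = 4.55e-06) on the log2 scale at 24 hr, and the helical-repeat RNA-binding protein Ifit3 by 2.69 (SE 0.397, adjusted p = 3.12e-07) and 2.62 (SE 0.401, adjusted p = 6.28e-07). Mx2 was called lower than at 0 hr at both times in both strains.

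**Figure D2:**
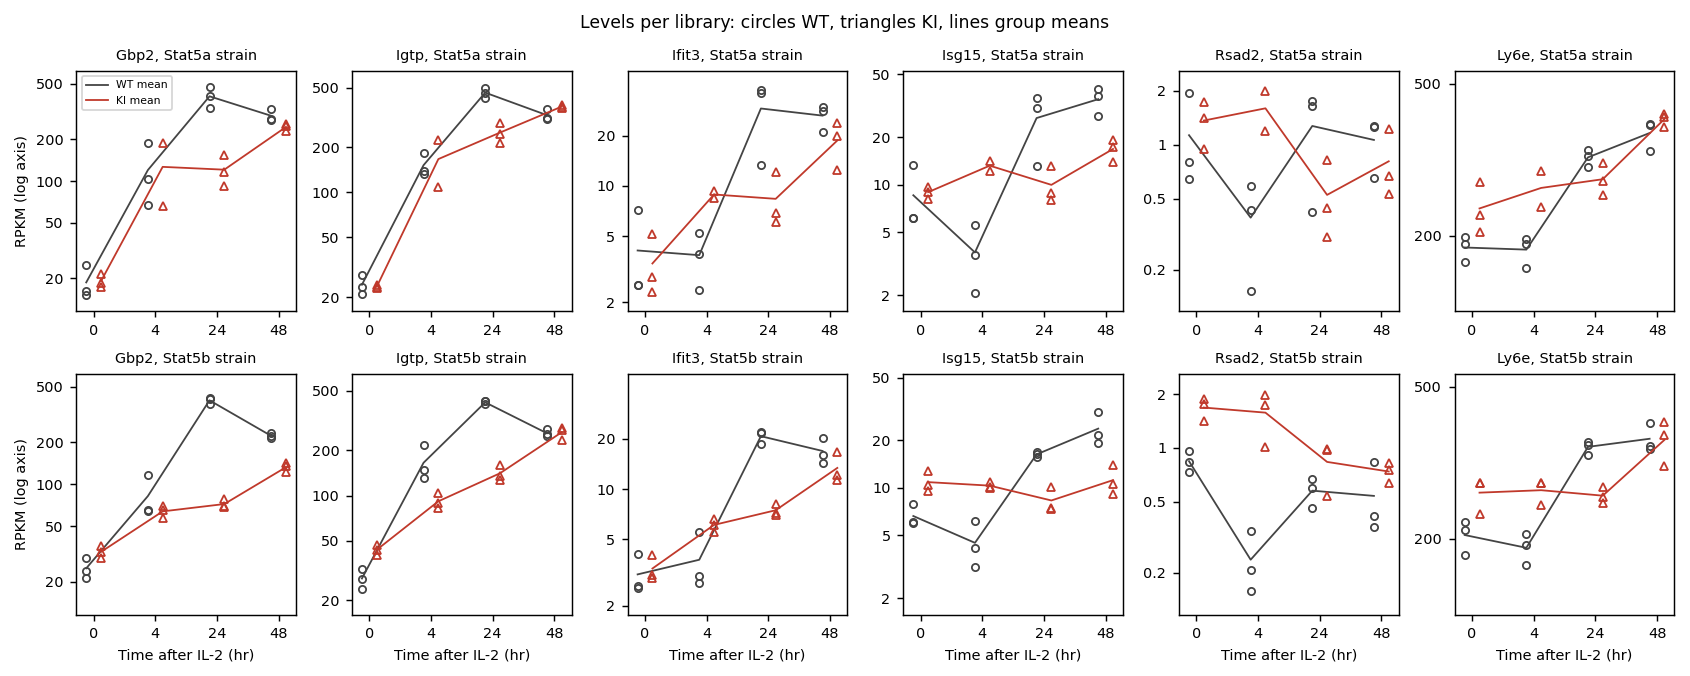
RPKM (log axis) of Gbp2, Igtp, Ifit3, Isg15, Rsad2 and Ly6e against time after IL-2 (hr, evenly spaced) in WT cells (circles) and KI cells (triangles) of each strain; points are libraries and lines join group means. For Gbp2 at 24 hr the WT libraries of the Stat5b strain lie at 374 to 418 RPKM and the KI libraries at 68.6 to 77.8 RPKM, while the KI libraries of Isg15 and Rsad2 lie above the WT libraries at 4 hr.

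The same response was tested in KI cells. In Stat5a KI cells 11 ISGs rose and 3 fell at 4 hr (7.07% and 10.8% of all genes), 15 and 4 at 24 hr (7.56% and 13.5%), and 22 and 2 at 48 hr (10.1% and 16.0%). In Stat5b KI cells 4 rose and 3 fell at 4 hr (5.73% and 7.88%), 10 and 3 at 24 hr (5.42% and 10.3%), and 17 and 2 at 48 hr (6.23% and 12.5%). The median log2 fold change over the ISGs was 0.43, 0.63 and 1.08 at the 3 times in Stat5a KI cells and -0.02, 0.42 and 0.77 in Stat5b KI cells, with medians over all genes between -0.01 and 0.03. Of the 11 GBP and IRG genes, 9, 11 and 11 rose in Stat5a KI cells and 4, 8 and 11 in Stat5b KI cells. Without replicate 2 of the 4 hr Stat5a KI group 7 ISGs rose at 4 hr, and without replicate 1 of the 0 hr Stat5b KI group 2 rose. Leaving out replicate 1 of the 24 hr Stat5a KI group raised the number that fell at 24 hr to 7, and leaving out replicate 2 or 3 lowered it to 2. In Stat5b KI cells 1 fell at 24 hr without replicate 3 of the 0 hr group or any one library of the 24 hr group, and 1 fell at 48 hr without replicate 1 of that time.

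An interaction term tested whether the responses of KI and WT cells differed. At 24 hr the change from 0 hr was lower in KI cells for 9 ISGs in the Stat5a strain (1.40% of all genes were lower by this test) and for 19 ISGs in the Stat5b strain (6.50%), and higher for none (0.263% and 3.75%). The 9 were Zbp1, Isg15, Ifit1, Gbp2, Gbp3, Gbp4, Gbp5, Gbp6 and Iigp1. The 19 comprised all 11 GBP and IRG genes with Zbp1, Isg15, Usp18, Ifit3, Oasl2, Bst2, Rtp4 and Parp9. Iigp1 showed the most negative difference in the Stat5b strain, with a log2 fold change of -3.11 between the responses, followed by Gbp2 with -2.81. At 4 hr the response was higher in KI cells for 3 ISGs in the Stat5a strain (0.116% of all genes; Dhx58, Cmpk2 and Ifi27l2a) and lower for none (0.251%), whereas in the Stat5b strain it was higher for none (0.122%) and lower for 2 (0.437%), the neighbors Igtp and Irgm2. Igtp was at 131.5, 146.9 and 217.8 RPKM in WT and 82.3, 104 and 88.6 RPKM in Stat5b KI cells at 4 hr. Its KI libraries were all below its WT libraries, although at 0 hr they had been above them (32.3, 27.8 and 23.8 RPKM in WT and 43.5, 40.1 and 46.7 RPKM in KI cells), and the responses differed by -1.48 on the log2 scale (adjusted p = 0.00034). At 48 hr the response was lower for 2 ISGs in the Stat5a strain (3.44%) and for 5 in the Stat5b strain (11.5%), and higher for none (2.85% and 9.80%). These counts, 4.76% and 11.9% of the ISGs, are near the shares over all genes and are not a result about the ISGs. The counts in the Stat5a strain rested on single libraries. Its 9 at 24 hr became 16 without replicate 2 of the 0 hr WT group, 14 without replicate 1 of the 24 hr WT group, and 4 or 5 without replicate 1 of the 0 hr WT or KI group or replicate 2 or 3 of either 24 hr group, and 2 with the left-out library included. Its 3 at 4 hr ranged from 0, without replicate 2 of the 0 hr WT group or replicate 1 of the 4 hr KI group, to 6, were 5 without the shallow WT library, and were 0 in a fit of these groups alone. Its 2 at 48 hr became 6 without replicate 2 of the 0 hr WT group. In the Stat5b strain the 2 at 4 hr became 1 without any of 5 libraries in turn, and the 5 at 48 hr became 3 without replicate 2 of the 0 hr WT group or replicate 3 of the 48 hr KI group. The plot of the IL-2 responses places each member's KI value beside its WT value.

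**Figure D3:**
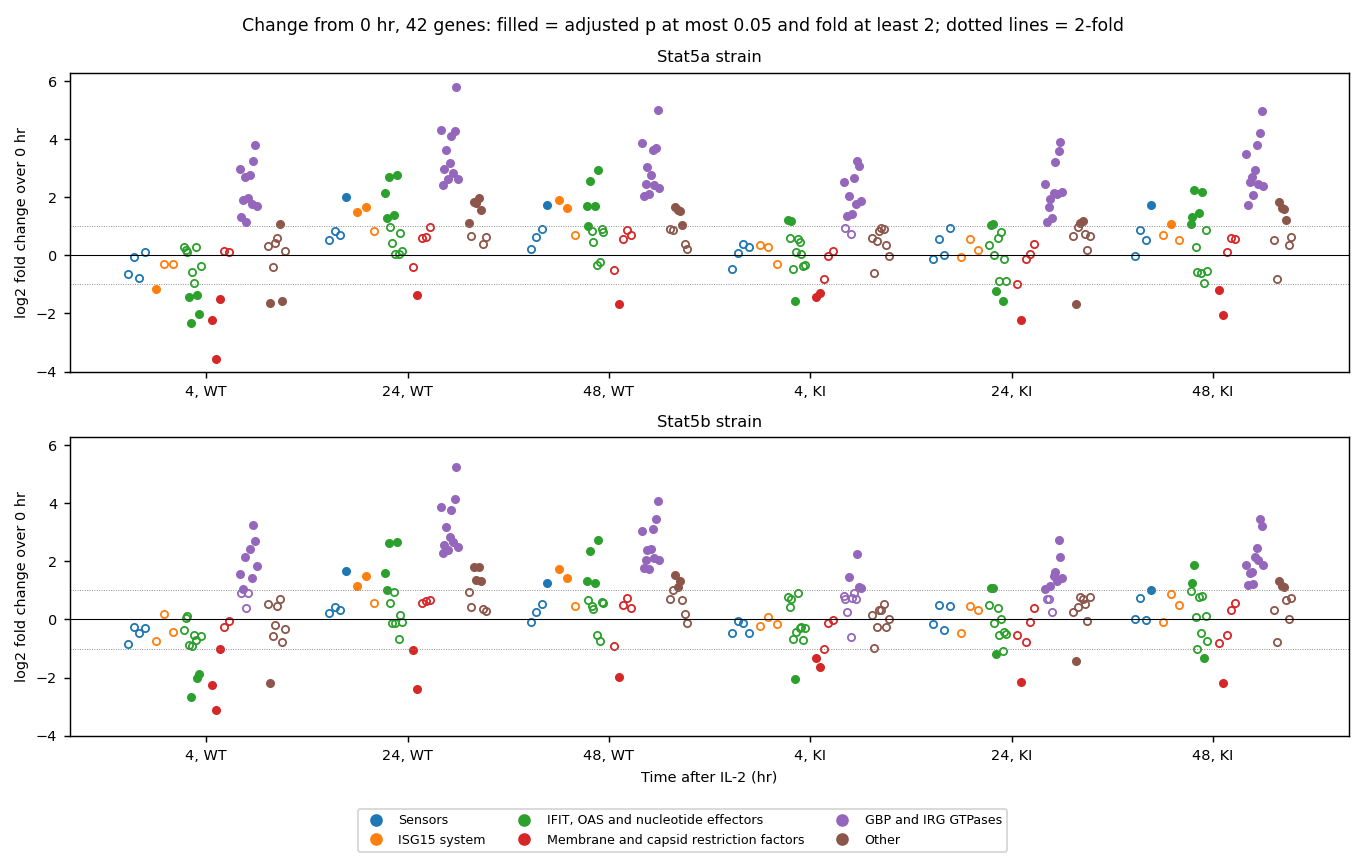
Log2 fold change from 0 hr of each of the 42 ISGs (1 point per gene, colored by role and spread sideways for visibility) at 4, 24 and 48 hr in WT and KI cells of each strain; filled points were called and dotted lines mark 2-fold. The GBP and IRG genes hold the highest values in each column and their KI values are the lower ones at 24 hr, with class medians of 3.17 in WT and 2.16 in KI cells of the Stat5a strain.

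KI and WT cells were next compared directly at each time. At 0 hr no ISG was called in the Stat5a strain (0.778% of all genes were called higher and 0.199% lower), and the median log2 fold change over the ISGs was -0.04; 2 of the 42 had an unadjusted p below 0.05 in edgeR's test. In the Stat5b strain Iigp1 was the one member called, being higher in KI cells (7.13% of all genes higher and 0.617% lower). Its RPKM was 3.49, 1.86 and 2.3 in WT and 5.97, 5.82 and 7.25 in KI cells, without overlap, with a log2 fold change of 1.23 (SE 0.410, adjusted p = 0.0249), and the call was lost without WT replicate 2, WT replicate 3 or KI replicate 3. The median over the ISGs was 0.15 in this strain, and -0.01 over all genes in both.

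At 4 hr Stat5a KI cells had 8 ISGs above WT and none below by a call (2.20% and 4.48% of all genes), and 8 were higher and none lower in Stat5b KI cells (9.56% and 1.12%). The median log2 fold changes over the ISGs were 0.18 and 0.15, and over all genes 0.00 and 0.01. The 5 members called in both strains (62.5% of each list) were Isg15, Oasl1, Rsad2, Cmpk2 and Mx2, to which the Stat5a strain added Dhx58, Oas1a and Ifi27l2a and the Stat5b strain Ifit1, Mx1 and Ifi44. Isg15, the ubiquitin-like modifier conjugated to viral and host proteins, was at 5.53, 2.05 and 3.59 RPKM in WT and at 14.2 and 12.2 RPKM in Stat5a KI cells. The Stat5b strain had 3.15, 4.15 and 6.16 RPKM in WT and 10.1, 10 and 10.9 RPKM in KI cells. In both strains every KI library was above every WT library, with log2 fold changes of 1.53 (SE 0.318, adjusted p = 0.00127) and 1.14 (SE 0.289, adjusted p = 0.00292). Isg15 was already apart at 0 hr in the Stat5b strain, at 7.86, 5.97 and 6.07 RPKM in WT and 10.4, 12.7 and 9.53 RPKM in KI cells, without a call (log2 fold change 0.63, adjusted p = 0.105). Rsad2 (viperin), a radical SAM enzyme that makes a chain-terminating nucleotide, was at 0.434, 0.587 and 0.152 RPKM in WT and 2 and 1.2 RPKM in Stat5a KI cells, without overlap, and its log2 fold change was 1.62 (SE 0.538, adjusted p = 0.0267). Values in the Stat5b strain were 0.159, 0.207 and 0.345 RPKM in WT and 1.99, 1.01 and 1.73 RPKM in KI cells, again without overlap, with a log2 fold change of 2.67 (SE 0.518, adjusted p = 0.000146). Rsad2 too was apart at 0 hr in that strain, at 0.959, 0.735 and 0.837 RPKM in WT and 1.87, 1.41 and 1.77 RPKM in KI cells (log2 fold change 0.92, adjusted p = 0.157, not called). The interaction test called neither gene in the Stat5b strain at 4 hr (adjusted p = 0.859 for Isg15 and 0.28 for Rsad2).

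Mx2 had a log2 fold change of 2.32 (SE 0.494, adjusted p = 0.00148) in the Stat5a strain and 1.55 (SE 0.447, adjusted p = 0.00867) in the Stat5b strain at 4 hr, and its highest level in any 4 hr library was 1.12 RPKM. Oasl1, which restrains translation of Irf7, had log2 fold changes of 1.76 (SE 0.367, adjusted p = 0.00128) and 1.33 (SE 0.333, adjusted p = 0.00248). Relative to 0 hr, the log2 fold change of Mx2 in the Stat5a strain was -3.56 in WT and -1.31 in KI cells, and that of Isg15 was -1.15 in WT and 0.36 in KI cells, but the interaction test called neither (adjusted p = 0.052 and 0.0558). None of the 11 GBP and IRG genes was called higher or lower at 4 hr in either strain. The 2 Stat5a KI libraries were far apart for this class, with summed RPKM of 468 and 1011, compared with 568 to 738 in WT cells. A difference in that strain could therefore have been missed. The 4 hr counts depended on single libraries. In the Stat5a strain 2 members were called higher without KI replicate 1 and 15 without the shallow WT replicate 2 (log2 fold changes of 1.45 for Isg15, 2.36 for Rsad2, 2.59 for Mx2 and 1.96 for Oasl1), and none in a fit of the 5 libraries of these groups alone; 6 were called lower without KI replicate 2. For Stat5b, 2 were called higher without WT replicate 1 and 5 without KI replicate 3.

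At 24 hr the called differences lay in the opposite direction. In the Stat5a strain KI cells had 19 of the 42 ISGs called lower than WT (1.36% of all genes were called lower), and none was higher (3.10%). Of the ISGs in Stat5b KI cells, 14 were lower (5.78%) and none higher (10.9%). The median log2 fold change over the ISGs was -0.96 in the Stat5a strain and -0.91 in the Stat5b strain, compared with -0.01 and 0.07 over all genes. All 42 values were below 0 in the Stat5a strain and 37 of 42 in the Stat5b strain. Every KI library was below every WT library for 29 and 35 of the 42 ISGs, compared with 14.3% and 29.7% of all genes tested. The 12 members called in both strains (63.2% of the 19 and 85.7% of the 14) were Gbp2, Gbp3, Gbp4, Gbp5, Gbp6, Gbp7, Iigp1, Ifit1, Ifit3, Oasl2, Rtp4 and Zbp1. The Stat5a strain added Isg15, Usp18, Oas2, Oas3, Rsad2, Cmpk2 and Ifi44, and the Stat5b strain added Igtp and Irgm2.

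**Figure D4:**
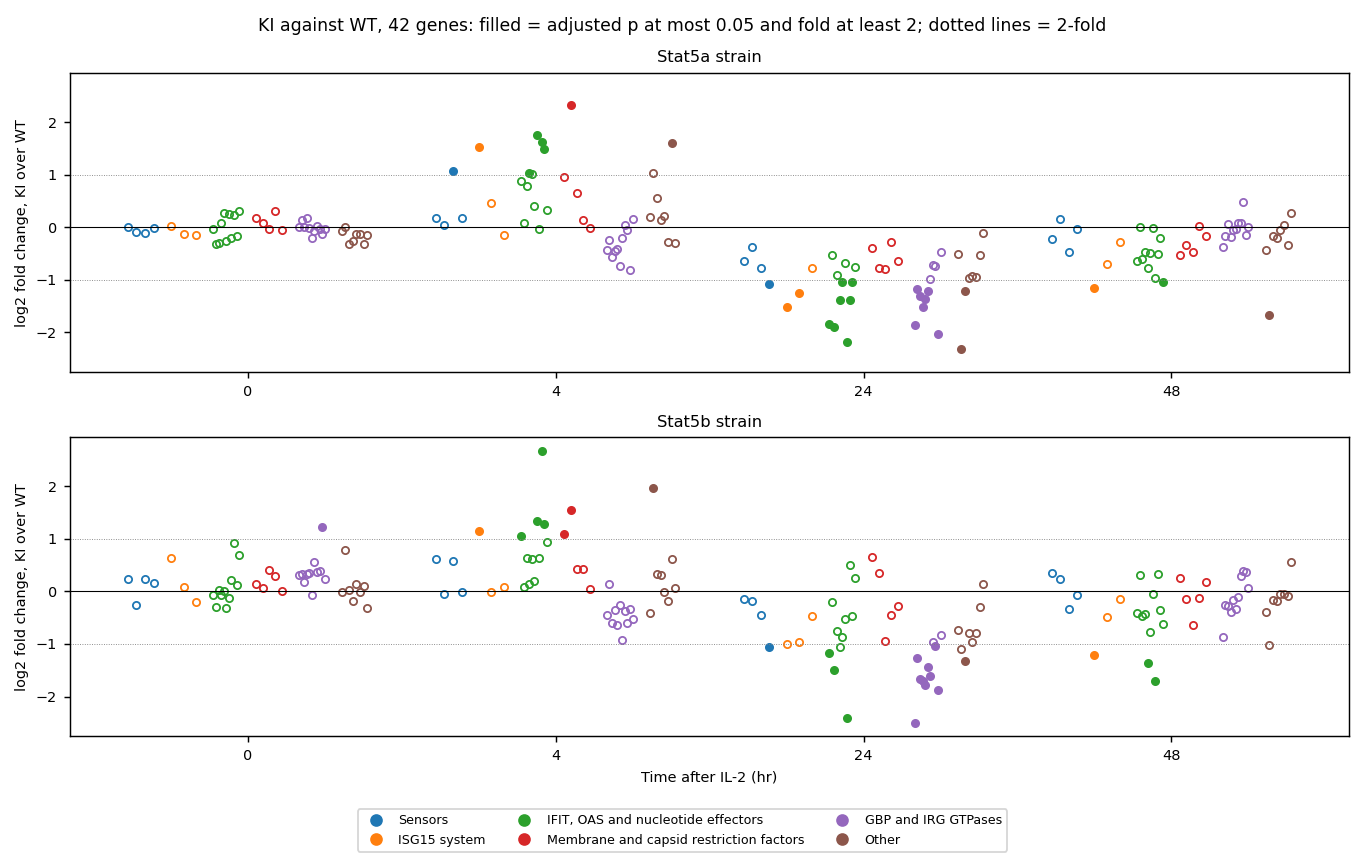
Log2 fold change of KI over WT cells for each of the 42 ISGs at 0, 4, 24 and 48 hr (1 point per gene, colored by role); filled points were called and dotted lines mark 2-fold. Filled points lie above 0 at 4 hr and below 0 at 24 hr in each strain, 8 and 19 in the Stat5a panel and 8 and 14 in the Stat5b panel.

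By role, the GBP and IRG genes held 7 of the 19 lower members in the Stat5a strain (class median -1.21) and 9 of the 14 in the Stat5b strain (class median -1.60), and the WT and KI libraries of all 11 were apart in both strains. Gbp2 was at 331.6, 408 and 476.4 RPKM in WT and 154.4, 91.7 and 115.7 RPKM in Stat5a KI cells. Stat5b littermates had 418, 407 and 374 RPKM (WT) and KI mice 68.6, 77.8 and 69.8 RPKM. The lowest WT library was thus more than 2-fold above the highest KI library in each strain, with log2 fold changes of -1.85 (SE 0.326, adjusted p = 0.000118) and -2.50 (SE 0.334, adjusted p = 8.45e-08). Iigp1 was at 68.5, 104.9 and 115.7 RPKM in WT and 32, 15 and 29 RPKM in Stat5a KI cells, a log2 fold change of -2.03 (SE 0.389, adjusted p = 0.000298). Iigp1 in the Stat5b strain was at 113.2, 95.4 and 114.3 RPKM in WT and 28.1, 34.6 and 26.7 RPKM in KI cells, a log2 fold change of -1.88 (SE 0.386, adjusted p = 9.93e-05). Neither pair of groups overlapped. Igtp, the most abundant GTPase gene of the set, was at 424.3, 405.6 and 424.5 RPKM in WT and 127.1, 159.8 and 135.3 RPKM in Stat5b KI cells, with all KI libraries low (log2 fold change -1.60, SE 0.181, adjusted p = 2.65e-09). In the Stat5a strain its change was just short of 2-fold (log2 fold change -0.98, SE 0.178, adjusted p = 0.000161).

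Of the 11 IFIT, OAS and nucleotide-directed effectors, 7 were lower in the Stat5a strain and 3 in the Stat5b strain. Oasl2 was at 8.96, 22.3 and 21.9 RPKM in WT and 6.09, 2.97 and 3.52 RPKM in Stat5a KI cells, and at 13.3, 15.1 and 12 RPKM in WT and 2.29, 2.56 and 2.88 RPKM in Stat5b KI cells. The KI libraries were all below the WT libraries, although WT replicate 1 of the Stat5a strain stood well below the other WT libraries. The log2 fold changes were -2.18 (SE 0.440, adjusted p = 0.000496) and -2.41 (SE 0.449, adjusted p = 2.57e-05). Ifit3 was at 13.3, 37.8 and 36.3 RPKM in WT and 12.2, 6.05 and 6.85 RPKM in Stat5a KI cells, the first WT value lying close to the first KI value (log2 fold change -1.90, SE 0.383, adjusted p = 0.000494). Ifit3 in the Stat5b strain was at 21.9, 21.7 and 18.7 RPKM in WT and 7.02, 7.24 and 8.15 RPKM in KI cells, clearly apart, with a log2 fold change of -1.50 (SE 0.380, adjusted p = 0.00114). Without WT replicate 1, which was low for IFIT and OAS genes, 23 ISGs were called lower in the Stat5a strain. The WT and KI libraries of Oas2, Rsad2 and Ifi44 overlapped in that strain, and their calls were lost on leaving out single libraries, as were those of Cmpk2, Oas3 and Zbp1. In the Stat5b strain the calls of Irgm2 and Zbp1 were each lost on leaving out either of 2 libraries.

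In the ISG15 system, Isg15 and Usp18, the protease that removes ISG15 and dampens the type I receptor, were lower in the Stat5a strain. Isg15 was at 13.2, 35.4 and 30.7 RPKM in WT and 13.1, 8 and 8.83 RPKM in KI cells, so that the lowest WT and the highest KI library were nearly equal (log2 fold change -1.51, SE 0.279, adjusted p = 0.000201). Isg15 in the Stat5b strain was at 16.8, 15.6 and 16.5 RPKM in WT and 7.35, 7.42 and 10.2 RPKM in KI cells, without overlap, but its change did not reach 2-fold. Among the sensors, Zbp1, which binds Z-form nucleic acid and can start necroptosis, was lower in both strains, at 72.4, 98.6 and 115.5 RPKM in WT and 59.6, 41.1 and 45.1 RPKM in Stat5a KI cells. Zbp1 in the Stat5b strain was at 80.9, 87.7 and 73 RPKM in WT and 34.8, 42 and 42 RPKM in KI cells, again with every KI library low (log2 fold change -1.05, SE 0.184, adjusted p = 1.01e-05). None of the 5 membrane and capsid restriction factors was called at 24 hr. Ly6e was at 303, 324 and 335 RPKM in WT and 310, 278 and 255 RPKM in Stat5a KI cells, which overlapped, and at 332, 359 and 352 RPKM in WT and 248, 274 and 256 RPKM in Stat5b KI cells, which did not (log2 fold change -0.45, SE 0.133, adjusted p = 0.00465). Among the other ISGs, Sp100, a nuclear body protein, had log2 fold changes of -0.11 and 0.15.

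At 48 hr 3 ISGs were lower in Stat5a KI cells (2.85% of all genes) and 3 in Stat5b KI cells (10.7%), and none was higher (5.85% and 15.7%), with medians over the ISGs of -0.20 and -0.17. Each count is 7.14% of the ISGs, which in the Stat5b strain is below the share over all genes, so it is not a result about the ISGs there, and the values that follow describe single members. Isg15 was the member called in both strains, at 27.2, 40.6 and 36.6 RPKM in WT and 19.3, 13.9 and 17.3 RPKM in Stat5a KI cells. Isg15 in the Stat5b strain was at 21.6, 19.3 and 30.3 RPKM in WT and 9.09, 13.9 and 10.6 RPKM in KI cells. All KI libraries were below all WT libraries, with log2 fold changes of -1.15 (SE 0.272, adjusted p = 0.000668) and -1.20 (SE 0.276, adjusted p = 0.000282). The others were Ifi44 and the exonuclease gene Isg20 in the Stat5a strain, and Oas2 and Oasl2 in the Stat5b strain. Oasl2 was at 12.7, 11.7 and 17 RPKM in WT and 4.19, 5.69 and 3.87 RPKM in Stat5b KI cells, without overlap (log2 fold change -1.71, SE 0.434, adjusted p = 0.00084). Without replicate 2 of the WT or of the KI group, 1 ISG was called in the Stat5a strain.

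The GBP and IRG genes no longer differed by a call at 48 hr in either strain. Igtp was at 359, 310 and 312 RPKM in WT and 363, 371 and 384 RPKM in Stat5a KI cells at 48 hr, compared with 256, 248 and 277 RPKM in WT and 275, 283 and 234 RPKM in Stat5b KI cells. All Stat5a KI libraries were slightly above their WT libraries, the groups of the Stat5b strain overlapped, and in WT cells of both strains the 48 hr values were below the 24 hr values. Other genes of the class were apart without reaching a call, and not in one direction. Irgm2 was higher in KI cells without overlap, at 64.7, 58.3 and 57.7 RPKM in WT and 84.8, 88.9 and 95.4 RPKM in Stat5a KI cells (log2 fold change 0.48, adjusted p = 0.0131), and at 48.4, 47.4 and 51.7 RPKM in WT and 75.1, 69.6 and 65.8 RPKM in Stat5b KI cells (0.39, adjusted p = 0.0309). Gbp2 lay lower in KI cells without overlap in both strains, at 220.4, 214.6 and 231.9 RPKM in WT and 141.3, 134.4 and 121.5 RPKM in Stat5b KI cells (log2 fold change -0.87, adjusted p = 0.0172), and with a log2 fold change of -0.37 (adjusted p = 0.371) in the Stat5a strain. The change in the KI effect between 24 and 48 hr, a contrast added after the values were seen, was tested directly. The KI effect was higher at 48 than at 24 hr for 9 ISGs in each strain (0.450% and 1.03% of all genes), and lower for none. In the Stat5a strain the 9 were Zbp1, Gbp2, Gbp3, Gbp4, Gbp5, Gbp6, Igtp, Irgm2 and Iigp1, and in the Stat5b strain Gbp2, Gbp3, Gbp4, Gbp5, Gbp6, Igtp, Irgm1, Irgm2 and Iigp1. With the left-out shallow KI library put back into the fit, these counts became 0 and 4, and the 9 of the Stat5a strain became 4 without replicate 3 of the 24 hr WT group, 3 without replicate 2 of the 24 hr KI group, and 5 without replicate 2 of the 48 hr WT or replicate 3 of the 48 hr KI group.

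The Stat5b KI effect minus the Stat5a KI effect was tested at each time, and no ISG passed at 0, 4, 24 or 48 hr (0.0771%, 4.74%, 2.62% and 2.09% of all genes did). By edgeR's test 2, 7, 7 and 2 ISGs had an unadjusted p below 0.05 at the 4 times, and DESeq2 called 1 at 24 hr. At 24 hr 2 ISGs passed without replicate 1 of the Stat5a WT group, 2 without replicate 1 of the Stat5a KI group and 1 without replicate 2 of the Stat5b KI group, and at 4 hr 3 passed without replicate 1 of the Stat5a KI group and 1 without replicate 1 of the Stat5a WT group. None passed at 4 hr without the shallow WT library. A call in one strain and not in the other is therefore not shown to be a difference between the strains.

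From the wider interferon pathway, a list of 103 further genes present in the tables, 83 passed the filter. At 24 hr 9 of the 83 were lower and 1 higher in Stat5a KI cells (10.8% and 1.2%, compared with 1.36% and 3.10% of all genes; median log2 fold change -0.39), and 9 were lower and 3 higher in Stat5b KI cells (10.8% and 3.61%, compared with 5.78% and 10.9%; median -0.31). Called lower in both strains were Ifng, Gbp8, Gbp10, Gbp11, Parp12 and I830012O16Rik, with Irf7, Gm14446 and 2010002M12Rik in the Stat5a strain and Batf2, Socs1 and Samhd1 in the Stat5b strain; called higher were Ifnlr1, encoding the type III receptor chain, in both and Apol9a and Apol9b in the Stat5b strain. Among the ligands, Ifng, encoding IFN-γ, alone passed the filter; 6 of the other 20 ligand genes had no read in any library and the remaining 14 had at most 7 counts in a library. Ifng was at 12.2, 19.5 and 48 RPKM in WT and 4.88, 2.56 and 2.53 RPKM in Stat5a KI cells at 24 hr. In the Stat5b strain it was at 53, 54.2 and 33.7 RPKM in WT and 3.67, 3.21 and 2.76 RPKM in KI cells. All KI libraries were low and apart from the WT libraries, with log2 fold changes of -3.10 (SE 0.361, adjusted p = 2.6e-07) and -3.90 (SE 0.371, adjusted p = 4.86e-11).

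At 48 hr Ifng was still lower in KI cells, at 11.8, 5.64 and 8.5 RPKM compared with 35.6, 41.7 and 81.3 RPKM in the Stat5a strain, and at 8.68, 7.58 and 5.52 RPKM compared with 62.1, 61.5 and 53.9 RPKM in the Stat5b strain. Its log2 fold changes there were -2.72 (SE 0.344, adjusted p = 4.63e-08) and -3.16 (SE 0.352, adjusted p = 8.08e-10). The difference of Ifng was not called at 0 hr (-0.42 and -0.31) or at 4 hr (-0.20 and -0.33). Whether the level of Ifng had a part in the ISG differences was not tested.

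Of the receptors and kinases, the subunit genes Ifnar1, Ifnar2, Ifngr1 and Ifngr2 and the kinases Jak1, Jak2 and Tyk2 were not called at 24 hr in either strain. Irf7, the amplifier of type I interferon genes, was called in the Stat5a strain (log2 fold change -1.09, SE 0.188, adjusted p = 8.59e-05) and was short of 2-fold in the Stat5b strain (log2 fold change -0.85). Irf9 was not called at 24 hr in either strain (log2 fold changes -0.09 and -0.02). The inhibitor Socs1 was lower in Stat5b KI cells at 4 hr (log2 fold change -1.39, SE 0.225, adjusted p = 1.24e-05) and at 24 hr (log2 fold change -1.63, SE 0.226, adjusted p = 1.77e-07), and was not called in the Stat5a strain at either time.

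These are bulk libraries, in which fewer cells of a type and less RNA per cell cannot be told apart. The labeled cell type was checked against markers. None of 6 CD8+ T cell markers was called between KI and WT cells at any time in either strain, and their summed RPKM at 24 hr had a median of 1282 in WT and 1547 in KI cells of the Stat5a strain and of 1321 in WT and 1488 in KI cells of the Stat5b strain. The CD8+ T cell sums were higher in KI cells without overlap at 24 and 48 hr in both strains. The 48 hr medians were 1095 in WT and 1561 in KI cells of the Stat5a strain, and 1059 and 1598 in the Stat5b strain. At 0 hr they were lower in KI cells without overlap (969 and 865, and 1300 and 1009). At 4 hr they overlapped in the Stat5a strain and were lower without overlap in Stat5b KI cells (1160 and 1059). Markers of other splenic cells moved with the genotype. All 7 B cell markers were higher in KI cells at 24 and 48 hr in both strains, and their summed RPKM at 24 hr had a median of 71.9 (24.3 to 81.9) in WT and 200 (163 to 205) in Stat5a KI cells, and of 25.3 (23.3 to 30.4) in WT and 167 (162 to 188) in Stat5b KI cells, with Cd79a the most abundant. Of 10 macrophage and monocyte markers, 9 and 10 were higher at 24 hr in the Stat5a and Stat5b strains, with summed medians of 14.6 in WT and 32.2 in Stat5a KI cells and of 8.06 in WT and 66.4 in Stat5b KI cells, led by Lyz2. The summed erythroid markers at 24 hr had a median of 27.1 RPKM in WT and 31.7 RPKM in Stat5a KI cells, and of 16.2 RPKM in WT and 264 RPKM in Stat5b KI cells, led by Hbb-bs. The CD4+ T cell sum at 24 hr was higher in KI cells without overlap, with medians of 8.73 in WT and 17.6 in Stat5a KI cells and of 5.97 in WT and 20.1 in Stat5b KI cells, led by Cd4. Neutrophil markers were low, with sums that overlapped in the Stat5a strain (medians of 0.072 in WT and 0.339 in KI cells) and were apart in the Stat5b strain (0.558 and 5.67), led by S100a9. NK cell markers moved the other way. Of 4, Klrb1c and Klrc2 were lower in KI cells at 24 hr in both strains and none was higher, and their summed RPKM had a median of 9.63 (9.61 to 10.4) in WT and 7.57 (7.43 to 7.6) in Stat5a KI cells, and of 12 (11.5 to 14.5) in WT and 5.46 (3.84 to 6.76) in Stat5b KI cells, led by Klrc2. The NK sum was also lower in KI cells without overlap at 0 hr, with medians of 5.35 in WT and 3.53 in Stat5a KI cells and of 7.09 in WT and 2.89 in Stat5b KI cells. At 4 hr it overlapped in the Stat5a strain (6.46 in WT and 4.12 in KI cells) and was lower without overlap in Stat5b KI cells (10.1 and 3.3). At 48 hr it overlapped between KI and WT cells in both strains, with medians of 20.5 in WT and 20.7 in Stat5a KI cells and of 19.8 in WT and 16.9 in Stat5b KI cells. The B cell sum was higher in KI cells at 4 hr as well as at 24 hr. At 4 hr it had a median of 81.3 in WT and 255 in Stat5a KI cells, and of 44.8 in WT and 200 in Stat5b KI cells. Other sums were higher without overlap at 4 hr as well. The macrophage and monocyte sum had medians of 14.8 in WT and 38.5 in Stat5a KI cells and of 16.8 in WT and 67.8 in Stat5b KI cells. For plasmacytoid dendritic cells the medians were 22.5 and 34.5 in the Stat5a strain and 23.6 and 51 in the Stat5b strain, and for conventional dendritic cells 11.8 and 19.6 and, in the Stat5b strain, 13.9 and 30.3. The neutrophil medians were 0.895 and 2.2 in the Stat5a strain and 3.45 and 12.4 in the Stat5b strain. The erythroid and CD4+ T cell sums were apart at 4 hr in the Stat5b strain, with medians of 40.9 in WT and 412 in KI cells and of 11 in WT and 25.4 in KI cells, and overlapped in the Stat5a strain (44.9 and 203, and 14.2 and 20.7). At 24 hr the plasmacytoid sums were 23.2 and 39.1, and 20.8 and 47.9, and the conventional ones 5.4 and 9.92, and 5.14 and 15.5, each higher in KI cells without overlap. The plasmacytoid sums rest in large part on Ccr9. Its mean at 24 hr was 8.78 RPKM in WT and 16.8 RPKM in Stat5a KI cells. In the Stat5b strain it was 7.23 RPKM in WT and 19 RPKM in KI cells. Which cells the reads of the NK cell markers came from cannot be told from bulk libraries. The part of other cells, NK cells included, in the ISG differences was not tested. The CD8+ T cell markers used here do not separate subsets of CD8+ T cells. Per the paper, both KI strains have lower numbers of memory CD8+ T cells, virtual memory cells among them. The part of such a shift within the CD8+ T cells in the ISG differences was not tested either.

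**Figure D5:**
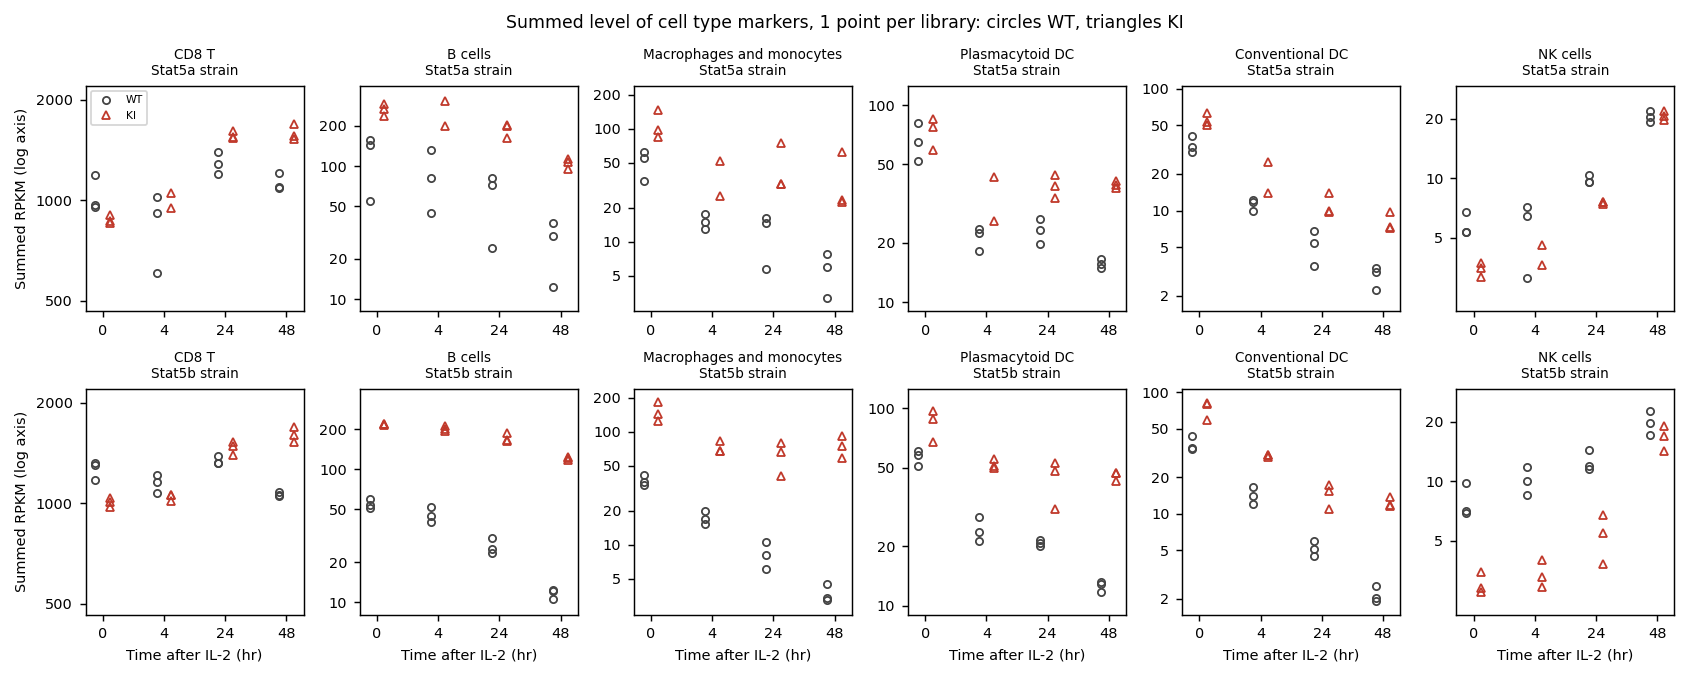
Summed RPKM (log axis) of marker genes of 6 cell types against time after IL-2 (hr) in each strain; each point is a library, with circles for WT and triangles for KI. B cell, macrophage and dendritic cell sums are higher in KI than in WT libraries at 24 hr, for example 162 to 188 compared with 23.3 to 30.4 for B cells in the Stat5b strain, and CD8+ T cell sums differ less.

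Of the members, 2 lie on chromosome 11 near the edited genes. Dhx58, which encodes the RNA helicase LGP2, is at chr11:100694884-100704271, 76.5 kb from the nearer of Stat5a and Stat5b, and Ifi35, a partner of the NMI protein, is at chr11:101448412-101458701, 563.2 kb away. An effect of the KI allele and one of sequence linked to it cannot be told apart for these genes. Dhx58 was at 3.55, 1.83 and 2.6 RPKM in WT and 7.43 and 6.37 RPKM in Stat5a KI cells at 4 hr, without overlap (log2 fold change 1.07, SE 0.209, adjusted p = 0.000711), and its log2 fold change was -0.78 at 24 hr. Ifi35 was at 54.4, 53.7 and 54.1 RPKM in WT and 41.9, 40.4 and 39 RPKM in Stat5a KI cells at 24 hr, compared with 50.7, 50.5 and 51.9 RPKM in WT and 31.4, 29.6 and 32.2 RPKM in Stat5b KI cells. Its libraries were tightly grouped and apart, with log2 fold changes of -0.51 (SE 0.0962, adjusted p = 0.000241) and -0.74 (SE 0.0966, adjusted p = 4.71e-08), which were short of 2-fold. At 0 hr neither gene differed by a call, with log2 fold changes of -0.10 and -0.07 in the Stat5a strain and 0.24 and -0.02 in the Stat5b strain.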

How the data were processed

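RNA was measured in 48 libraries of mouse splenic CD8+ T cells. Per the labels and the study's methods, the authors made libraries from 100 ng of total RNA with the KAPA mRNA HyperPrep kit, sequenced single-end reads of 50 bases, aligned them to mm10 with TopHat 2.0.11, kept unique reads and counted them over RefSeq exons. The counting program and its use of strand are not given in the sources used here, so overlapping genes and near-identical family members (GBP, IRG, OAS and IFIT genes) carry some uncertainty. The deposited tables hold 31682 transcripts with read counts and RPKM computed by the authors. One transcript per symbol, the longest, was used, giving 23992 symbols. RPKM served for levels as deposited. Counts were tested in R 4.3.3 with edgeR 4.0.16 (TMM scaling, filterByExpr with a minimum count of 10, glmQLFit and glmQLFTest, Benjamini-Hochberg adjustment), in 1 fit with a mean for each of 16 groups over 47 libraries. A call required an adjusted p of at most 0.05 and a change of at least 2-fold, the criteria given in the study's results. The standard error is the log2 fold change divided by the root of the F statistic. Comparisons within a strain share groups. No 2 libraries of a group held identical values. The edgeR test was checked on simulated counts for a comparison of KI with WT cells in the Stat5a strain. Promoter sequences were read from RefSeq tables of GRCm38.p6.

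All 42 members could be named. Values in every library were given for at most 3 called members per role and comparison, those with the largest change whose groups did not overlap, for the most abundant member, and for Dhx58 and Ifi35 because of their position; Isg15, Rsad2, Bst2, Igtp, Gbp2 and Irgm2 were in places described, called or not, for comparison between strains or times after their values were seen. Members and lists were chosen with earlier results of these data known. Alternatives were DESeq2 1.42.0, its size factors, library totals, no filter on low counts, no fold threshold, only the groups compared, all 48 libraries, the transcript with the highest mean, a replicate block, and each library left out. Replicate numbers were taken to pair samples where each of 3 pairs had a correlation of deviations from the group means above 0.1, as judged from the data, since the labels do not say what a number marks. This held for WT cells of the Stat5a strain at 24 hr (0.207 to 0.420) and 48 hr (0.116 to 0.193) against 0 hr; several other comparisons with 0 hr had positive correlations in every pair, but not all above 0.1, and Stat5a KI cells at 4 hr had 2 pairs (0.163 and 0.182). Items withheld for evaluation are not reported here.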

Additional observations from a re-analysis of the deposited data

Results flagged for a closer look

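The KI and WT responses to IL-2, each relative to 0 hr, differed by an interaction test (edgeR's quasi-likelihood test, Benjamini-Hochberg adjustment) for a number of ISGs that varied with time. At 48 hr that number was near the share over all genes in both strains and is not a result about the ISGs. In the Stat5a strain 3 ISGs differed at 4 hr (Dhx58, Cmpk2 and Ifi27l2a, a larger value in KI cells), 9 at 24 hr and 2 at 48 hr (Isg15 and Isg20, a smaller value in KI cells). In the Stat5b strain 2 differed at 4 hr (Igtp and Irgm2, a smaller rise in KI cells), 19 at 24 hr and 5 at 48 hr (Isg15, Oasl2, Isg20, Bst2 and Gbp2, a smaller value in KI cells). The shares of all genes that differed in the same direction were 0.116%, 1.40% and 3.44% in the Stat5a strain and 0.437%, 6.50% and 11.5% in the Stat5b strain. The KI effect also differed between 24 and 48 hr for 9 ISGs in the Stat5a strain and 9 in the Stat5b strain (0.450% and 1.03% of all genes in the same direction), a contrast added after the values were seen, and these counts became 0 and 4 with all 48 libraries. The 3 at 4 hr in the Stat5a strain became 0 without WT replicate 2 at 0 hr, in which Isg15 was at 13.4 RPKM compared with 6.17 and 6.15 RPKM in the other WT libraries, and the 9 at 24 hr became 16 without it.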

How the results depend on the processing

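No member called in the main fit turned its direction under any alternative run. Some runs did call members in a direction that had no call in the main fit. Most counts stayed within 1.5 times, and those that did not were the following. The cause of each change was not tested. Fitting the compared groups alone, the Stat5a strain had 6 ISGs lower at 4 hr than at 0 hr in WT. At 24 hr 0 were lower than at 0 hr in these WT cells. In this strain 0 were higher in KI than WT at 4 hr and 0 had a larger KI response at 4 hr. Relative to 0 hr, the Stat5b strain had 2 lower in WT at 48 hr and 5 lower in KI cells at 4 hr. It had 2 with a larger KI response at 4 hr, and 2 had a higher Stat5b than Stat5a KI effect at 24 hr. With all 48 libraries, the KI response in the Stat5a strain was larger for 5 at 4 hr. It was smaller for 2 at 24 hr and 1 at 48 hr. In Stat5b KI cells 1 ISG was lower at 24 hr than at 0 hr, and 1 at 48 hr. In that strain 0 were higher in KI than WT at 0 hr and 0 had a smaller KI response at 4 hr. The KI effect differed between strains for 1 at 4 hr and between 24 and 48 hr for 0 and 4. DESeq2 gave 5 with a larger KI response at 4 hr in the Stat5a strain and 1 for the strain difference at 24 hr. In WT of the Stat5b strain it gave 2 lower at 48 hr than at 0 hr, and its size factors also gave 2. Library totals gave 1 lower at 48 hr in Stat5a KI than WT. In WT of the Stat5b strain they gave 2 lower at 48 hr than at 0 hr. They also gave 1 with a smaller KI response at 4 hr in the Stat5b strain and 1 for the strain difference at 24 hr. With these totals the KI-against-WT median over all genes was 0.32 at 48 hr in the Stat5b strain (0.06 with TMM). With no filter the smaller KI response at 4 hr in the Stat5b strain held for 1.

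With no fold threshold, more ISGs were called. KI against WT gave 35 lower at 24 hr in the Stat5a strain, with 1 higher and 8 lower at 48 hr; for Stat5b it gave 2 higher with 3 lower at 0 hr, 5 lower at 4 hr, 29 lower at 24 hr, and at 48 hr 4 higher with 7 lower. Against 0 hr, Stat5a KI cells had 18 higher and 5 lower at 4 hr and 23 and 7 at 24 hr, WT cells of the Stat5b strain 13 and 16 at 4 hr and 2 lower at 48 hr, and Stat5b KI cells 13 and 8 at 4 hr, 21 higher at 24 hr and 27 and 5 at 48 hr. The response differed for 15 (smaller) at 24 hr in the Stat5a strain and for 1 (larger) at 24 hr and 3 (larger) and 8 (smaller) at 48 hr in the Stat5b strain, the strains for 2 at 4 hr, and the KI effect between 24 and 48 hr for 15 in the Stat5b strain.

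With each library left out in turn, where a lone library was assumed to vary like the other groups, ISGs lower in KI than WT numbered 14 to 24 at 24 hr and 1 to 3 at 48 hr in the Stat5a strain (0 to 6 at 4 hr) and 12 to 15 and 2 to 4 in the Stat5b strain (0 to 1 at 4 hr). Those higher numbered 2 to 15 and 2 to 9 at 4 hr and 0 to 1 at 0 hr in the Stat5b strain. In WT cells against 0 hr the counts higher and lower were 9 to 12 and 6 to 14, 24 to 29 and 0 to 1, and 21 to 26 and 1 in the Stat5a strain, and 7 to 10 and 5 to 11, 21 to 22 and 1 to 2, and 21 and 1 to 2 in the Stat5b strain. In KI cells they were 7 to 15 and 2 to 3, 12 to 17 and 2 to 7, and 20 to 23 and 2 to 3 in the Stat5a strain, and 2 to 5 and 3 to 4, 8 to 10 and 1 to 2, and 16 to 18 and 1 to 2 in the Stat5b strain. A larger KI response was found for 0 to 6 at 4 hr (a smaller one for 0 to 2), and a smaller one for 4 to 16 and 1 to 6 at 24 and 48 hr in the Stat5a strain, and for 1 to 2 (larger, 0 to 1), 17 to 19 and 3 to 6 in the Stat5b strain. The KI effect differed between times for 3 to 12 and 8 to 10, and between strains for 0 to 3 at 4 hr and 0 to 2 at 24 hr.

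With a replicate block, the paired comparisons kept 24 higher and 1 lower at 24 hr and 23 and 1 at 48 hr in WT cells of the Stat5a strain. For the other comparisons the samples share only a number; with the block the ISGs lower in KI than WT at 24 hr numbered 19 and 16, and the count that moved was the smaller KI response at 4 hr in the Stat5b strain, from 2 to 1. Depth limits Ifi44, Mx2, Oas2 and Rsad2, whose lowest counts in a library were 6, 13, 25 and 32.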
